A study of Mus musculus with 9 samples.

Results

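Transcripts that persisted or faded late after transcription was stopped were read in mature medullary thymic epithelial cells that carry much MHC class II (mTEChi), by setting the library taken at 12 h of actinomycin D (ActD) against the one taken at 1.5 h. Both libraries are 2 of the 9 of the series. They came from WT mTEChi sorted from pooled thymi of B6 mice as CD45-negative, Ly51-low and MHC class II-high cells, and kept in MEM medium with 1 uM ActD. The 3 h and 6 h libraries, from WT mTEChi treated alike, served to check direction. All 4 treated libraries were built with SMARTer amplification and a Nextera kit, so the untreated library, built with another kit, was left out. The methods name 3, 6 and 12 h of treatment, and the 1.5 h time is known from the label of its library. Each time holds 1 library, so the comparison has no replicate check and gives no p-value. An entry is a RefSeq mRNA of the count tables. The members are the 20638 of 25537 entries (80.8%) with at least 20 reads at 1.5 h, which lie in 15746 genes with a symbol.

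ActD binds DNA and halts RNA polymerases, so that mRNA made before the drug is lost at its own rate. The amount of an mRNA is set by synthesis and decay together, and inducible genes such as those for early-response transcription factors and cytokines are known for short-lived mRNA. Their 3'UTRs often carry AU-rich elements, which are bound by proteins such as ZFP36 that bring in the deadenylases. mRNA of ribosomal proteins and of the respiratory chain is known as long-lived. mTEChi express Aire, which turns on genes of many other tissues in the thymic medulla, so that developing T cells meet their products.

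The members were read as CPM, read counts scaled to a library total of 1000000. CPM are relative: when most mRNA is lost, a stable mRNA gains share, and a gain is no evidence of synthesis. The 1.5, 3, 6 and 12 h libraries held 21124165, 13953047, 11295960 and 1746825 reads, so that 1 read was worth 0.0473 CPM at 1.5 h and 0.572 CPM at 12 h. Among the members, 3.95% were at 0 reads at 3 h, 17.4% at 6 h and 12.4% at 12 h. The 6 h library thus missed more members than the 12 h library, although it was the deeper of the pair. Even among the members with at least 100 reads at 1.5 h, 1107 had no read at 6 h and 558 had none at 12 h. All 14 mTEC markers had reads in every treated library, and their summed level was 43071 CPM at 12 h, against 31294 CPM at 1.5 h. Most of the sum was the MHC class II genes Cd74, H2-Aa and H2-Ab1. These had 12970, 12537 and 9316 CPM at 12 h, against 8563, 9550 and 6370 CPM at 1.5 h. By the limits given below, 1 of the 14 was lower at 12 h, Tnfrsf11a, and none was higher.

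Of the 20638 entries, 4566 were lower at 12 h than at 1.5 h (22.1% of entries) and 2066 were higher (10% of entries). An entry was called lower where its CPM ratio was 0.5 or less and the exact 95% interval of the ratio lay below 1, and higher where the ratio was 2 or more and the interval lay above 1. The interval covers counting error only. The median log2 ratio over all entries was -0.31, with quartiles at -1.22 and 0.39. Entries called lower made up 68.9% of all calls, and 57.2% when libraries were scaled by the size factors of DESeq2 instead, which shifted the median of all entries by 0.19 on the log2 scale. At least 4-fold lower were 2270 entries, and at least 4-fold higher were 418. Of the entries called lower, 1373 had no read at 12 h. The share called higher was 19.2% for entries with 20 to below 100 reads at 1.5 h and 10.1% with 100 to below 500. It was 4.22% with 500 to below 2000 reads and 5.48% with at least 2000. The share called lower was 18.1%, 27.1%, 21.1% and 15.8% in that order. The shares of all genes set beside the lists below are not matched for reads.

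The direction was checked with the 6 h over the 3 h library, which share no library with the main pair. Of the entries called lower that had at least 20 reads over the 3 h and 6 h libraries together, 69.9% stood lower at 6 h than at 3 h, against 56.3% of all entries. Of those called higher, 64.4% stood higher at 6 h, against 43.7% of all. The match was closer where more reads were counted. With at least 500 reads at 1.5 h, 83.2% of the entries called lower went down between 3 h and 6 h (58.5% of all), and 90.8% of those called higher went up (41.5% of all). Spearman's rho between both log2 ratios was 0.094 over the 4738 entries with 20 to 99 reads at 1.5 h and 0.72 over the 2136 entries with at least 2000. Entries share lengths and libraries, so these values are a description only. In 1 entry per gene, 3444 genes were called lower (21.9% of genes) and 1638 higher (10.4% of genes). Of the genes called lower, 22.3% went down at every step through 1.5, 3, 6 and 12 h, against 8.66% of all genes, and of those called higher, 14.2% went up at every step, against 2.62% of all genes. These shares include the 1.5 h and 12 h values that set the calls.

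**Figure D1:**
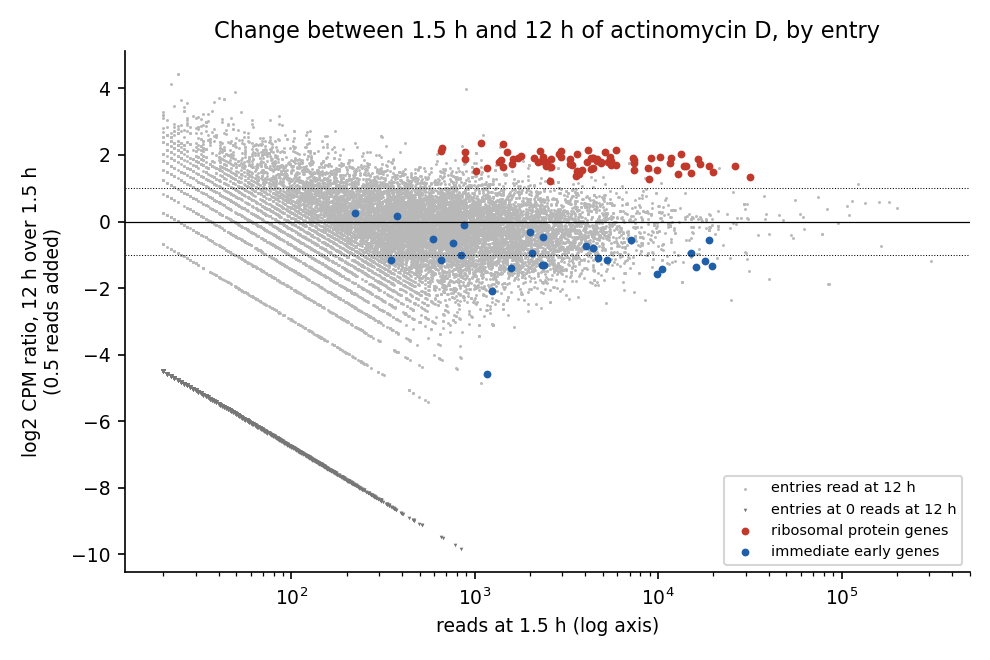
Each point is 1 entry, with its reads at 1.5 h on a log axis and the log2 CPM ratio of 12 h over 1.5 h on the vertical axis. Dotted lines mark 2-fold, and the dark diagonal is the 2558 entries with no read at 12 h, whose ratio is set by the 0.5 reads added. All 78 ribosomal protein genes lie above the upper dotted line, and no immediate early gene does.

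Genes were also read by list. The lists were chosen with earlier results of these data known, so the shares of calls in them are a description only. Ribosomal protein genes, which encode the structural proteins of both ribosomal subunits, made the largest gain of the 32 lists with a measured gene. All 78 of 79 genes with enough reads were called higher, against 10.4% of all genes, and their median ratio was 3.49-fold (1.80 on the log2 scale, against -0.29 for all genes). Summed over the 78 genes the level was 22397, 19150, 49779 and 74460 CPM at 1.5, 3, 6 and 12 h. The gain therefore lay after 3 h. Every one of the 78 also stood higher at 6 h than at 3 h.

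Rplp0, a stalk protein of the large subunit, had 1243, 1032, 2158 and 3992 CPM at 1.5, 3, 6 and 12 h, a ratio of 3.21 at 12 h over 1.5 h (95% interval 3.13 to 3.30). Rpl4 had 1506, 1317, 2636 and 3780 CPM, a ratio of 2.51 (2.44 to 2.58). Rpl36 on chromosome 17 (56752818 to 56753666, plus strand, mm9) gave the largest ratio of the list, 5.13 (4.59 to 5.73), with 50.8, 45.3, 206 and 261 CPM. Each of these 3 genes dipped at 3 h and was higher at 6 h and again at 12 h. The smallest ratio of the list was 2.33, for Rpl10, so that the weakest gain of a ribosomal protein gene was still above 2-fold. Short mRNA gained in general, as described further on, and ribosomal protein genes are short. Among 4477 other genes of 391 to 1864 bases, the span of most ribosomal protein genes, the median log2 ratio was 0.25 and 19.1% were called higher. Rps27 and Rps27rt had the same count in every library, being near-identical copies, so their reads cannot be told apart.

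Translation factors gained less uniformly. Of 38 genes, 11 were called higher and 1 lower, against 10.4% and 21.9% of all genes, with a median log2 ratio of 0.46. Eef1a1, the elongation factor that delivers aminoacyl-tRNA, had 5816, 4687, 7129 and 12727 CPM at 1.5, 3, 6 and 12 h, a ratio of 2.19 (2.16 to 2.22). Rack1, a protein of the small ribosomal subunit, had 1015, 783, 1879 and 3095 CPM, a ratio of 3.05 (2.96 to 3.14). Eef1b2, an exchange factor for Eef1a1, gave a ratio of 2.93 (2.80 to 3.07). Eif4g2, an initiation factor of non-canonical translation, gave 1.07 (1.02 to 1.11) and was not called. Eef2, which moves the ribosome along the mRNA, gave 1.66 (1.63 to 1.70) and was not called either. Subunits of initiation factor 3 split, with Eif3f and Eif3i at 2.53 (2.36 to 2.71) and 2.47 (2.24 to 2.73), and Eif3a and Eif3b at 0.818 (0.753 to 0.887) and 0.852 (0.743 to 0.972).

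mRNA of ribosomal proteins and several translation factors is known to begin with a tract of pyrimidines after a C, the 5' terminal oligopyrimidine motif, through which mTOR signalling governs its translation. The first transcribed bases are shown for 5 genes that gained, from RefSeq starts (GRCm38.p6, read 5′ to 3′ on the sense strand), with the tract in capitals.
Rack1: CTTTTTCTCCacagggtcgt
Rps6: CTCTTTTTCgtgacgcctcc
Rps18: CTCTCTTCCacaggaggcct
Rpl35: CTCTTTCTCTCgaaccaggc
Fau: CTTCCTCTTTCTTgactcca
These lie at chr11:48800360-48800379, chr4:86857348-86857367, chr17:33955646-33955665, chr2:39005112-39005131 and chr19:6057947-6057966. The tract searched was a C at an annotated start followed by at least 4 bases that are C or T. Where a gene had several starts, the one with the longest tract was taken. The tract was found in 14 of the 57 ribosomal protein genes with a start in the table (24.6%). Translation factor genes held it in 4 of 28 (14.3%), and measured genes in 381 of 12545 (3.04%). By call, it was found in 3.45% of genes called higher, 3.08% of those not called and 2.71% of those called lower. Annotated starts may miss the true first base. Outside the ribosomal protein genes, the 367 genes with a tract had a median log2 ratio of -0.18, and the 12121 without one of -0.29.

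Genes of oxidative phosphorylation, which encode the nuclear subunits of the respiratory chain and ATP synthase, gained as well. Of 76 genes, 23 were called higher and none lower, against 10.4% and 21.9% of all genes. Their median log2 ratio was 0.74, and 72 of the 76 lay above the median of all genes. Cox4i1, a subunit of cytochrome c oxidase, had 493, 399, 947 and 1104 CPM at 1.5, 3, 6 and 12 h, a ratio of 2.24 (2.13 to 2.35). Cox7b and Atp5g2 gave the largest ratios, 3.39 (2.96 to 3.87) and 3.30 (2.84 to 3.81). Of the subunits with most reads, Atp5b gave 1.46 (1.41 to 1.51) and Atp5a1 gave 1.17 (1.12 to 1.23), neither of which was called. The entries of Cox7b and Atp5g2 have 1001 and 647 bases, and those of Atp5b and Atp5a1 1879 and 2431.

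Other lists of abundant proteins shifted upward against the rest without passing the 2-fold limit. None of the 36 proteasome genes was called in either direction, and their median log2 ratio was 0.48. Ferritin, metallothionein and thiol enzyme genes had a median of 0.52, with Fth1, the heavy chain of ferritin, at 1.96-fold (1.85 to 2.07). Cytoskeleton genes had a median of 0.49, and 4 of 27 were called higher, among them Tmsb10, an actin-binding thymosin, with 199 CPM at 12 h against 47.9 CPM at 1.5 h. S100 genes had a median of 0.55, which was -0.03 relative to genes of like length, and 2 of 15 were called higher, a share near that of all genes (10.4%).

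**Figure D2:**
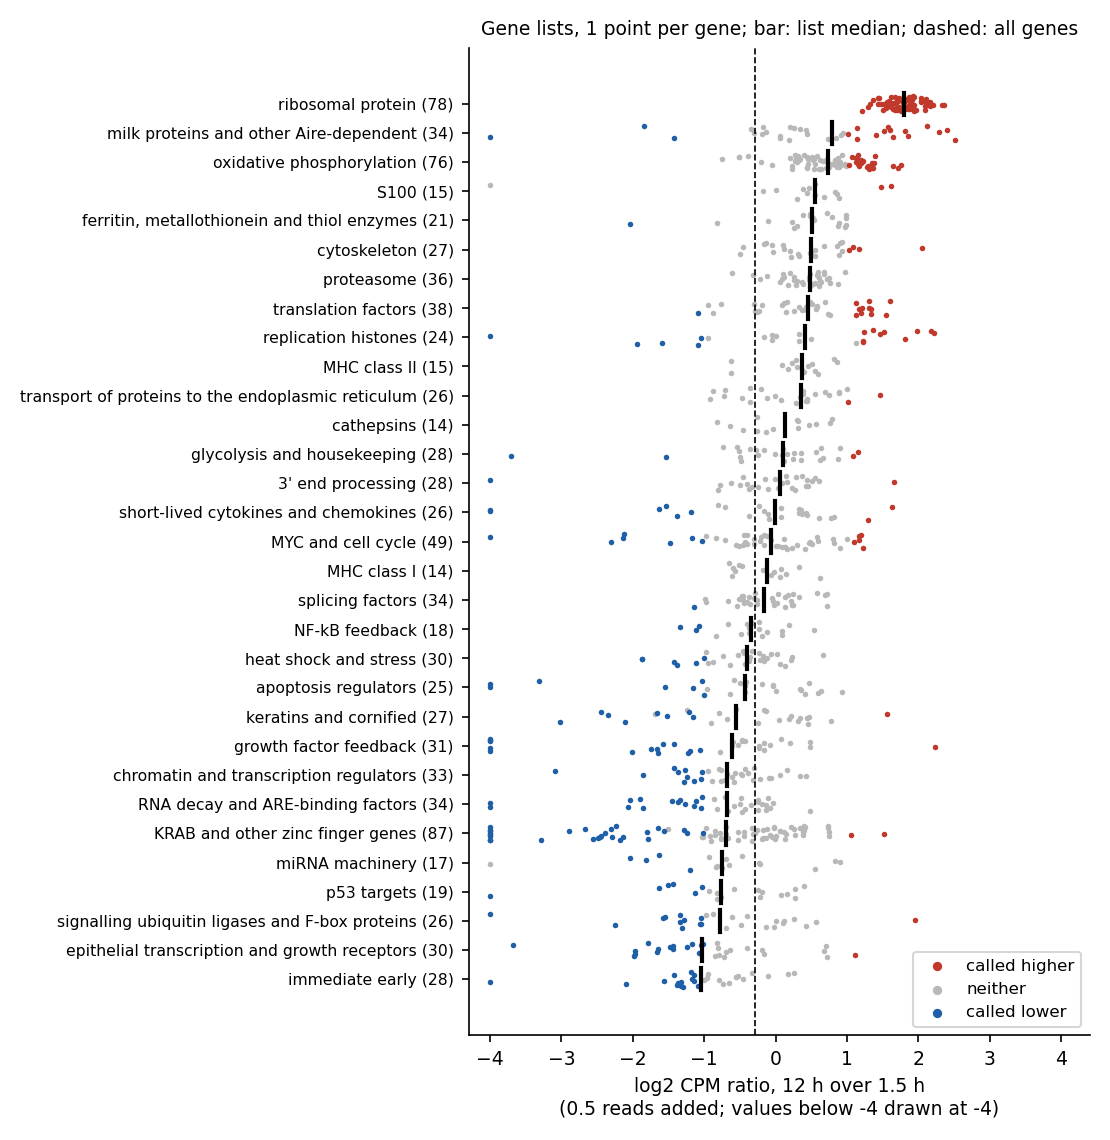
Each point is 1 gene of a list (number of measured genes in brackets), placed by its log2 CPM ratio of 12 h over 1.5 h, with genes called higher in red and genes called lower in blue. Black bars are list medians and the dashed line is the median of all genes, -0.29. Ribosomal protein genes stand apart at 1.80, and immediate early genes lie lowest, at -1.04.

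Immediate early genes, induced within minutes of a stimulus without new protein, lay at the other end. Of 28 genes, 14 were called lower and none higher, against 21.9% of all genes called lower. Their median ratio was 0.486, or -1.04 on the log2 scale, and 25 of the 28 lay below the median of all genes. Summed over the list, the level was 7262, 8739, 7234 and 3539 CPM at 1.5, 3, 6 and 12 h. The sum was thus near its starting level at 6 h and lowest at 12 h.

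Fos, a subunit of the AP-1 transcription factor (chromosome 12, 86814840 to 86818223, plus strand, mm9), had 929, 809, 519 and 372 CPM at 1.5, 3, 6 and 12 h, a ratio of 0.40 (0.37 to 0.43). Zfp36, which binds AU-rich elements and speeds their decay, had 848, 1051, 580 and 372 CPM, a ratio of 0.438 (0.405 to 0.474). Egr1, a zinc finger factor of growth signals, had 761, 982, 779 and 294 CPM, a ratio of 0.387 (0.354 to 0.422). Of these, Fos went down at every step, while Zfp36 and Egr1 first stood higher at 3 h. Egr3, a relative of Egr1, had 55.3, 81.8, 31.0 and 2.29 CPM, with 4 reads at 12 h and 1168 at 1.5 h. Its ratio of 0.0414 (0.0113 to 0.106) was the lowest of the list. Ccn1, a secreted matrix protein, stood at 0.234 (0.149 to 0.350), and Junb, another AP-1 subunit, at 0.679 (0.638 to 0.722), which was not called.

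The AU-rich heptamer TATTTAT was searched on the sense strand of annotated 3'UTRs (gencode vM1, mm9). It was present in 18 of the 28 immediate early genes, and in 23.8% of all 15523 genes with a matched transcript. The first site of the 3'UTR is shown for 5 genes of the falling lists, as the site within 25 bases, with the heptamer in capitals.
Fos: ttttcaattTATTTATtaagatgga
Zfp36: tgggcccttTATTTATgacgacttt
Klf6: tacgtctctTATTTATgccttgagg
Notch1: tttttttagTATTTATttatgtact
Errfi1: tatattactTATTTATgacaccgtt
These lie at chr12:86818055-86818079 (plus strand), chr7:29161987-29162011 (minus), chr13:5867738-5867762 (plus), chr2:26314882-26314906 (minus) and chr4:150242972-150242996 (plus). The 3'UTR of Fos holds 2 such heptamers in 815 bases, that of Zfp36 3 in 774 and that of Notch1 4 in 1628. Of the immediate early genes called lower, 9 held the heptamer and 5 did not, so a match did not mark off those that fell.

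The list of growth factor feedback genes, which also holds Per1 and Id1, fell in part. Of 31 genes, 14 were called lower and 1 higher, against 21.9% and 10.4% of all genes, with a median log2 ratio of -0.61. Dusp10, a phosphatase of stress kinases, had 104, 129, 132 and 25.8 CPM at 1.5, 3, 6 and 12 h, a ratio of 0.249 (0.181 to 0.334). Errfi1, an inhibitor of EGF receptors, had 77.1, 72.7, 22.9 and 22.9 CPM, a ratio of 0.297 (0.212 to 0.406). Errfi1 was low at 6 h and at 12 h alike, whereas Dusp10 was low at 12 h only. Spred2 and Spry1, inhibitors of the Ras pathway, had 1 read each at 12 h, against 319 and 217 reads at 1.5 h. Id1, an inhibitor of helix-loop-helix factors, was the exception, with 33.2 CPM at 12 h against 7.01 CPM at 1.5 h, and it had 2.83 CPM at 6 h.

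The list of epithelial transcription factors and growth receptors fell as much as the immediate early genes. It also holds the interferon regulatory factors Irf8 and Irf1. Of 30 genes, 16 were called lower and 1 higher, against 21.9% and 10.4% of all genes, with a median log2 ratio of -1.03. Foxn1, the master regulator of thymic epithelium, had 135, 124, 84.2 and 64.1 CPM at 1.5, 3, 6 and 12 h, a ratio of 0.476 (0.391 to 0.575). Tnfrsf11a, the receptor RANK that drives mTEC maturation, had 95.2, 94.5, 52.5 and 27.5 CPM, a ratio of 0.289 (0.212 to 0.384). Irf8, an interferon regulatory factor, had 249, 225, 130 and 91.6 CPM, a ratio of 0.368 (0.313 to 0.431). Each of these 3 genes went down at every step, as did 10 of the 30. Pou2f3, the regulator of tuft cells, had 29.7, 27.8, 6.55 and 2.29 CPM, with 4 reads at 12 h. Erbb3, a receptor of neuregulins, and Ehf, an epithelial ETS factor, stood at 0.254 (0.164 to 0.377) and 0.253 (0.156 to 0.390). Fezf2, which drives Aire-independent tissue antigens, was not called, with 482 CPM at 12 h against 538 CPM at 1.5 h. Elf5 was the gene called higher, with 21 reads at 12 h and 117 at 1.5 h.

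mRNA of the decay machinery itself was called lower in 14 of 34 genes and higher in none, against 21.9% and 10.4% of all genes. The median log2 ratio of the list was -0.68. Tob1, which recruits the CCR4-NOT deadenylase, had 295, 359, 264 and 117 CPM at 1.5, 3, 6 and 12 h, a ratio of 0.396 (0.343 to 0.455). Dis3, a nuclease of the exosome, stood at 0.237 (0.118 to 0.428). Pan3, a subunit of the PAN2-PAN3 deadenylase, and Edc3, an enhancer of decapping, had no read at 12 h, against 459 and 308 reads at 1.5 h. Set against 3 reads, these were at least 12.7-fold and at least 8.49-fold lower. Cnot1, the scaffold of the deadenylase, was not called, at 0.721 (0.631 to 0.821).

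Regulators with long mRNA showed like values, in lists to be read against the 21.9% of all genes called lower and the 10.4% called higher. Of 33 chromatin and transcription regulators, 10 were called lower and none higher, with a median log2 ratio of -0.68. Ncoa1, a coactivator of nuclear receptors, stood at 0.117 (0.0532 to 0.222), and Brd2, a bromodomain protein, had 496, 515, 732 and 225 CPM at 1.5, 3, 6 and 12 h. Brd2 was thus highest at 6 h and lowest at 12 h. Of 26 signalling ubiquitin ligases, 11 were called lower and 1 higher (median -0.78), with Fbxw7, which targets cyclin E and MYC, at 0.208 (0.110 to 0.359). Of 87 zinc finger genes, 28 were called lower and 2 higher. Their median was -0.70, and -0.49 when the 12 genes with no read at 12 h were set at the bound of 3 reads. Zfp292 and Zfp217 stood at 0.181 (0.121 to 0.261) and 0.178 (0.110 to 0.273).

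Keratins and genes of cornified epithelium split by gene. Of 27 genes, 8 were called lower and 1 higher, against 21.9% and 10.4% of all genes. Krt10, a keratin of differentiated epidermal layers, had 351, 264, 147 and 81.3 CPM at 1.5, 3, 6 and 12 h, a ratio of 0.232 (0.195 to 0.274). Krt1, its partner, which is not on the list of 27 and was named by its rank over all genes, had 51.2, 31.1, 14.96 and 1.72 CPM, with 3 reads at 12 h and a ratio of 0.0335 (0.0069 to 0.0982). Spink5, an inhibitor of epidermal proteases, had 246, 225, 75.2 and 45.2 CPM. These 3 genes went down at every step. By contrast Krt8, Krt17 and Krt18, keratins of simple and basal epithelia, gave ratios of 1.16 (1.13 to 1.19), 1.03 (0.999 to 1.07) and 1.14 (1.10 to 1.18).

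**Figure D3:**
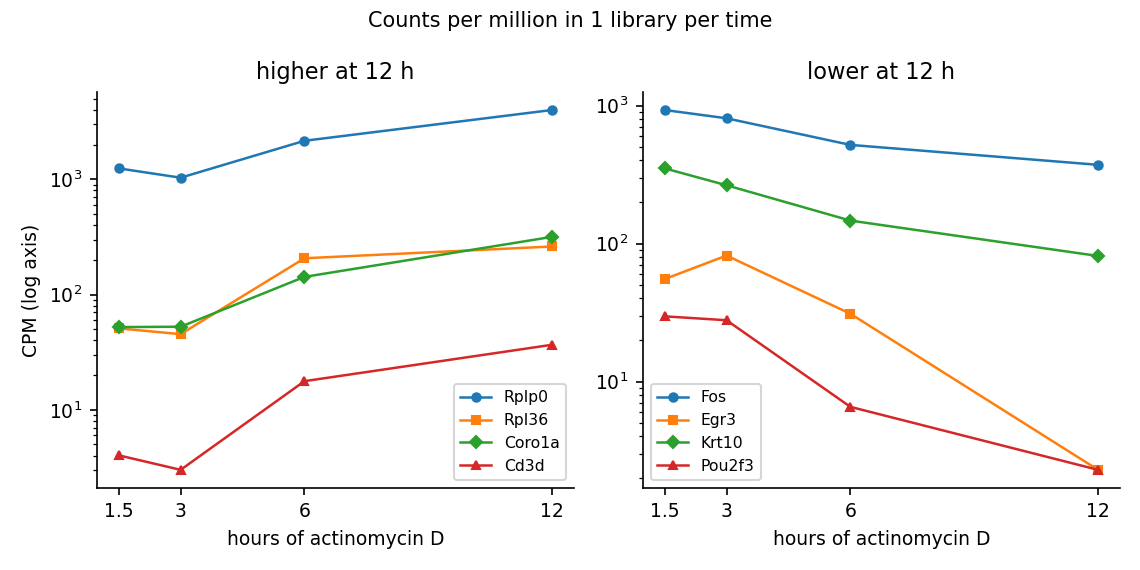
CPM on a log axis against hours of ActD, 1 library per time, for 4 genes higher at 12 h (left) and 4 genes lower at 12 h (right). Rplp0 and Rpl36 dip at 3 h and reach 3992 and 261 CPM at 12 h. Fos, Krt10 and Pou2f3 go down at each step, and Egr3 peaks at 3 h with 81.8 CPM before it drops to 2.29 CPM at 12 h.

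By the strength of the call, the genes with at least 200 reads at 1.5 h that were lowest at 12 h were, but for Krt1 and Egr3, longer than the median entry called lower, and none exceeded 60 CPM at 1.5 h. Larp4b, an RNA-binding protein, had 39.7, 42.7, 10.5 and 0 CPM at 1.5, 3, 6 and 12 h, and with 838 reads at 1.5 h was at least 23.1-fold lower at 12 h against 3 reads. Zbtb11, a zinc finger protein, had 36.8, 52.2, 30.5 and 0 CPM, at least 21.4-fold lower. Eps8, an actin-capping substrate of the EGF receptor, had 31.6, 12.6, 11.9 and 0 CPM, at least 18.4-fold lower. Of these, only Eps8 was lower at each step, while Larp4b and Zbtb11 stood highest at 3 h. The other 12 genes of this ranking were 4931408C20Rik, Ptprj, Tmtc3, Gcnt4, Perm1, Pcdh12, Pan3, Krt1, Nes, Egr3, Tbl1xr1 and Slc29a3. Perm1 and Tbl1xr1 stood at 22.0 and 23.4 CPM at 6 h, no lower than their 21.9 and 19.1 CPM at 1.5 h. Among members with at least 500 reads at 1.5 h, 6 entries in 5 genes had no read at 12 h.

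By the same ranking, genes of leukocytes were among those with the firmest gains beside ribosomal protein genes. Gm20594, an entry of 334 bases with no role given in the sources, had 42.3, 40.0, 333 and 667 CPM at 1.5, 3, 6 and 12 h, a ratio of 15.8 (14.4 to 17.2). Coro1a, an actin regulator of leukocytes, had 52.2, 52.5, 142 and 317 CPM, a ratio of 6.07 (5.47 to 6.73). Lck, a kinase of the T cell receptor, had 14.8, 18.1, 55.3 and 85.9 CPM, a ratio of 5.80 (4.74 to 7.06). Coro1a and Lck climbed at each step. Skap1, an adaptor of T cells, gave 15.1 (10.2 to 22.4) from 61 reads at 12 h and 49 at 1.5 h, and Cd3d, a chain of the T cell receptor complex, gave 9.11 (6.48 to 12.7). Xcl1, a chemokine of mTEC and lymphocytes, had 53.8 CPM at 12 h against 8.14 CPM at 1.5 h. Psmb11, the proteasome subunit of cortical thymic epithelium, had 39.5 CPM at 12 h against 5.97 CPM at 1.5 h. Jsrp1 and Retn, with 54 and 56 reads at 12 h, stood at 3.36 and 6.02 CPM at 6 h and so did not show the gain there.

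Markers of other cells moved in both directions. Among all genes, 10.4% were called higher and 21.9% lower. Of 13 thymocyte markers, 9 had at least 20 reads at 1.5 h, of which 6 were called higher at 12 h and none lower. The sum of the 13 was 86.6, 76.8, 166 and 263 CPM at 1.5, 3, 6 and 12 h. Cd3e, Rag2 and Ptcra had no read at 12 h, from 15, 3 and 11 reads at 1.5 h. A fall in them was not detectable at the 12 h depth. The upper limits of their ratios were 3.37, 29.3 and 4.82, so gains above these lay outside counting error. Ptprc, which encodes the CD45 protein used to exclude leukocytes in the sort, had 9.16 CPM at 12 h against 8.38 CPM at 1.5 h. Of 12 dendritic cell and macrophage markers, 4 were called higher, the complement genes C1qa, C1qb and C1qc and the macrophage marker Adgre1. None was called lower, but the list did not gain as a whole. Csf1r had 14.9 CPM at 12 h against 25.2 CPM at 1.5 h, a ratio of 0.591 (0.38 to 0.88). Flt3 stood at 0.854 (0.506 to 1.36), and Xcr1 had no read at 12 h, from 26 reads at 1.5 h. The sum of the 12 was 687, 678, 925 and 1270 CPM, most of it Lyz2 and Cst3. Both erythroid markers in the files were called higher, Hba-a1 with 408 CPM at 12 h against 134 CPM at 1.5 h and 67.2 CPM at 6 h. Of 8 fibroblast markers, 3 were called lower and none higher. Endothelial markers summed to 20.6 CPM at 12 h against 33.4 CPM at 1.5 h, and B cell markers to 16.03 CPM against 23.3 CPM. The part of these cells in the gains was not tested. In bulk libraries such as these, a change in the number of cells of a type and a change in their RNA per cell cannot be told apart.

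Length was the feature that went furthest with the ratio. In 4 classes of summed exon length with equal numbers of entries, the median log2 ratio was 0.32 for the shortest entries, then -0.21, -0.44 and -0.76 for the longest. The 6 h over 3 h ratio gave 0.36, -0.04, -0.38 and -0.60. Entries called lower had a median length of 3607 bases, those not called 2718 and those called higher 1666. Coding length and 3'UTR length each showed this, also within classes of the other. Entries in the shortest class of both had a median of 0.61, and entries in the longest class of both -0.89. Within the shortest class of 3'UTR length the median still went down with coding length, to -0.35, and within the shortest class of coding length it went down with 3'UTR length, to -0.30. GC content moved less, with medians between -0.44 in the lowest class and -0.20 in the highest. The part of length in the values of single genes was not tested.

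**Figure D4:**
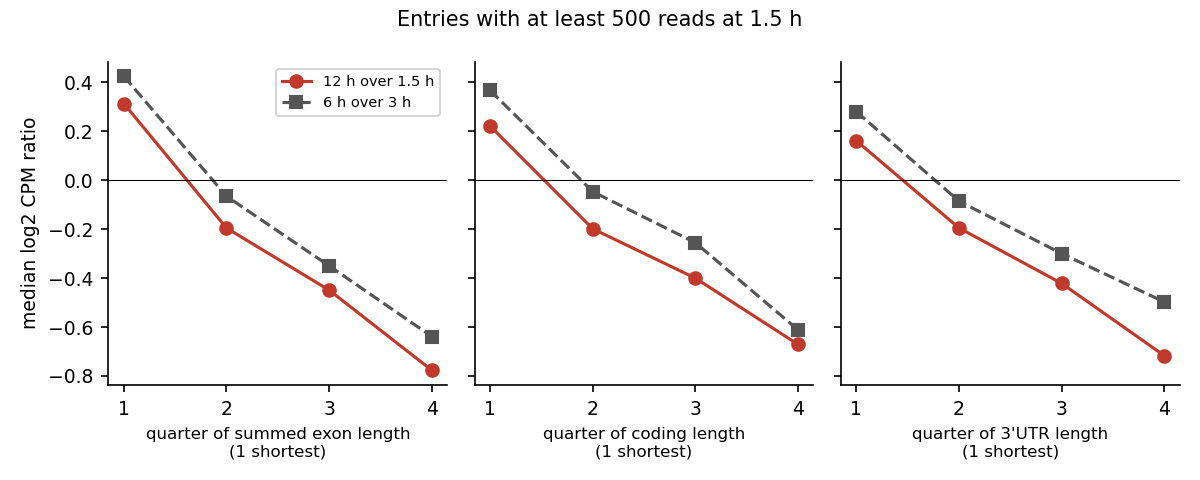
Median log2 CPM ratio by class of summed exon length, coding length and 3'UTR length, for entries with at least 500 reads at 1.5 h. Red points are 12 h over 1.5 h and grey squares 6 h over 3 h, which share no library. Both lines go down from the shortest to the longest class in each panel, by exon length from 0.31 to -0.78 and from 0.43 to -0.64.

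The heptamer TATTTAT was present in the 3'UTR of 32.3% of entries called lower, 23.7% of those not called and 13.4% of those called higher, and in 21.7% of all matched transcripts. Since a longer 3'UTR holds more sites by its length, entries were compared within classes of 3'UTR length. Entries with the heptamer had the lower median in each class, 0.01 against 0.15 in the shortest and -0.79 against -0.63 in the longest. The motif TGTANATA of Pumilio proteins, searched likewise, was present in 28.3% of entries called lower and 12.5% of those called higher. Within classes of 3'UTR length, entries with it had the lower median in each, by most in the second class (-0.40 against -0.13) and -0.75 against -0.68 in the longest. Length inside a class, and coding length, were not held constant.

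Set within deciles of exon length, the order of the lists changed. After subtracting the median of each gene's length decile, ribosomal protein genes kept a median of 1.31, translation factors 0.49 and oxidative phosphorylation genes 0.32. Growth factor feedback stood at -0.75, immediate early genes at -0.69 and epithelial factors and receptors at -0.61. By contrast, chromatin regulators stood at 0.05, ubiquitin ligases at -0.04, the miRNA machinery at -0.02 and zinc finger genes at -0.11, so that their lower ratios were those of other mRNA of like length. Decay factors stood between, at -0.26.

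Aire itself (chromosome 10, 77492767 to 77506325, minus strand, mm9) was not called, with a ratio of 1.29 (1.24 to 1.33) at 12 h over 1.5 h, and its level at 12 h lay below those at 3 h and 6 h. Clp1, an RNA kinase of the 3' end cleavage complex, had 34.2, 26.2, 65.2 and 19.5 CPM at 1.5, 3, 6 and 12 h, a ratio of 0.569 (0.391 to 0.802). The study asked whether Aire-sensitive transcripts whose distal 3'UTR share depends on Clp1 outlast the others. Its list of Aire-sensitive entries was used here for membership alone, and was chosen by the study, so that it is no independent evidence. Of its 967 entries, 701 had enough reads at 1.5 h. Their median log2 ratio was -0.68, against -0.30 for the 19937 other entries, a gap of -0.38. The gap was -0.18 in the 6 h over 3 h libraries, -0.05 there with at least 100 reads at 1.5 h, and -0.29 for the main pair within deciles of length. The medians also depended on how entries with no read at 12 h were set. At the bound of 3 reads they were -0.14 and -0.18. That bound is 1.72 CPM, above the 1.5 h level of the least-read entries (0.947 CPM for 20 reads), so it places these as gains. The recoded medians therefore do not show how far the gap rested on such entries. With at least 100 reads at 1.5 h the medians were -0.62 and -0.27 either way.

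Within that list, 118 entries had a distal 3'UTR ratio at least 2-fold lower in control than in Clp1 knockdown mTEChi, and 172 had a steady one. The first had a median log2 ratio of -0.32 and the second of -0.71, a gap of 0.39. With entries at 0 set at the bound, these medians were 0.09 and -0.43. The bound again places the least-read of these entries as gains. The sign of the first median turned by this recoding and shows no gain. Of the 118 entries, 28 were called lower (23.7%) and 27 higher (22.9%). Of the 172 steady ones, 59 were called lower (34.3%) and 28 higher (16.3%). Another 110 entries of the list had an increased distal ratio, with a median log2 ratio of -0.56. Of these, 28 were called lower (25.5%) and 17 higher (15.5%), so their share called lower was nearer that of the decreased entries. With at least 100 reads at 1.5 h, the entries with an increased ratio had a median of -0.45, and 29.1% were called lower. Of the 19937 entries outside the Aire-sensitive list, 22.0% were called lower and 9.82% higher. The entries with the decreased distal ratio were less read, with a median of 95 reads at 1.5 h against 248 for the steady ones, and 26.3% of them had no read at 12 h, against 15.1%. With at least 100 reads at 1.5 h, 55 and 129 entries remained, with medians of -0.27 and -0.75. The gap was 0.26 in the 6 h over 3 h libraries and 0.45 within deciles of length. The spread within each list was wide, as the quartiles of the steady entries with at least 100 reads were -1.98 and 0.17.

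The best-read members show that spread. Among those with a decreased distal ratio, Dlk1, a Notch ligand relative, had 142.5 CPM at 12 h against 45.7 CPM at 1.5 h, a ratio of 3.12 (2.70 to 3.59). Nts, the precursor of neurotensin, had 220 CPM at 12 h against 92.7 CPM at 1.5 h. Mep1a, an intestinal metalloprotease, had 93.3 CPM at 12 h against 135 CPM at 1.5 h and was not called. Among the steady ones, Spink5 was called lower, with 45.2 CPM at 12 h against 246 CPM at 1.5 h. Spp1, which encodes osteopontin, was called higher, with 306 CPM at 12 h against 135 CPM at 1.5 h. Members that gained and members that fell were thus found in both lists.

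**Figure D5:**
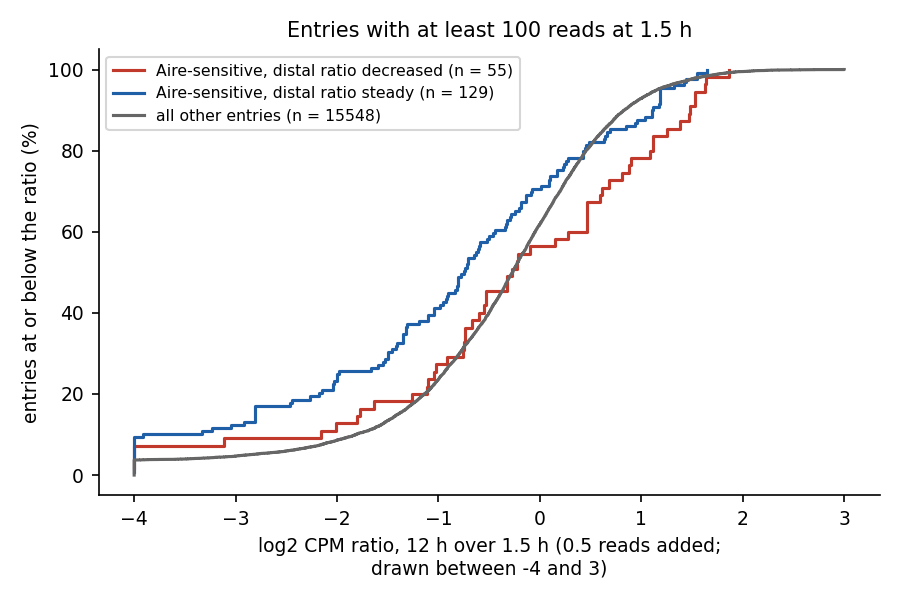
Share of entries at or below each log2 CPM ratio of 12 h over 1.5 h, for entries with at least 100 reads at 1.5 h. The red line holds 55 Aire-sensitive entries with a decreased distal 3'UTR ratio, the blue line 129 with a steady ratio and the grey line all 15548 other entries. The blue line lies left of the other lines over its lower part, and the medians are -0.27, -0.75 and -0.27 in that order.

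Milk proteins and other genes known to need Aire differed by their level. Of 34 genes, 14 were called higher and 3 lower, against 10.4% and 21.9% of all genes. Their median log2 ratio was 0.79. These genes are short, with a median length of 897.5 bases, and relative to genes of like length their median was 0.34. The genes with most reads hardly moved. Csn2, beta-casein, had 1469, 1270, 1727 and 1540 CPM at 1.5, 3, 6 and 12 h, a ratio of 1.05 (1.01 to 1.09), and Reg3g, an antimicrobial lectin, stood at 0.882 (0.834 to 0.933). The gains lay with less-read genes, such as Tff3, a mucosal trefoil peptide, with 96.7 CPM at 12 h against 32.4 CPM at 1.5 h, and Ins2, insulin, with 39.5 CPM against 13.8 CPM. Ambn, an enamel protein, had 32 reads at 12 h and 67 at 1.5 h but none at 3 h or 6 h, and Wap, a whey protein, had none at 3 h. Crp and Ttr, liver plasma proteins, were called lower, with 0 and 10 reads at 12 h. Relative to all entries the median of the list was 1.08, and 0.69 among entries with at least 100 reads at 1.5 h.

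At 12 h the 10 entries with most reads were, but for Fcgbp, of antigen presentation, translation and stress. The MHC class II genes Cd74, H2-Aa, H2-Ab1 and H2-Eb1 held 5 of these places, 2 of them by isoforms of Cd74 that share most reads. H2-Aa had 9550, 7569, 9498 and 12537 CPM at 1.5, 3, 6 and 12 h, a ratio of 1.31 (1.29 to 1.33), and Cd74, the invariant chain, gave 1.51 (1.49 to 1.54). None of the 15 MHC class II genes was called in either direction, and their median log2 ratio was 0.37. B2m, the light chain of MHC class I, stood at 1.53 (1.51 to 1.56), while H2-K1, a heavy chain, stood at 0.980 (0.958 to 1.00). Fcgbp, a mucin-like protein that binds IgG, was the entry with most reads at 1.5 h, with 14629, 11631, 6542 and 6412 CPM, a ratio of 0.438 (0.430 to 0.447). It was the only one of the 10 to be called lower, and Eef1a1 the only one called higher.

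At the minimum of 20 reads, 102 entries had exactly 20 reads at 1.5 h, of which 70 had no read at 12 h, 18 were called higher and 0 lower. Just outside, 116 entries had 19 reads, of which 80 had no read at 12 h, 19 would be called higher and 0 lower. A lower call needed at least 47 reads at 1.5 h even with no read at 12 h, as for Apoa5, Arxes2 and 1700010I14Rik, which had exactly that. The 18 called higher had 6 to 17 reads at 12 h, with Adam32, Arhgap6 and Cavin2, the first by alphabet, at 9, 6 and 7. For entries of this depth, a fall of 2-fold was therefore not detectable.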

How the data were processed

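Per the labels and methods, the authors sorted mTEChi, treated them with ActD, amplified RNA with the SMARTer kit, built Nextera libraries, read them from 1 end, filtered reads with CASAVA, aligned them to mm9 with Bowtie 1.0.0 and counted with bedtools the reads lying wholly within RefSeq exons. The deposited values are counts per RefSeq entry, not normalised, and were checked to be whole numbers. Counting did not use strand, and reads shared by isoforms count for each. Other columns, such as the untreated library and the authors' folds and p-values for other pairs, were not used.

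CPM used total counts, as in the study. Exact conditional 95% intervals hold for counting error alone: PCR copies of 1 molecule are counted more than once. Log2 ratios had 0.5 reads added, scaled to library size, and a count of 0 was bounded with 3 reads. For the least-read entries this bound lies above their 1.5 h level. Exon lengths are a deposited column. RefSeq names (GRCm38.p6) matched 97.9% of entries. 97.0% of members were matched by symbol and nearest length to a gencode vM1 transcript, whose build NCBIM37 is mm9. Lists took 1 entry per symbol, the one with most reads at 1.5 h.

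Members and the 33 lists were chosen with earlier results of these data known. Named were the 15 genes per direction with the firmest interval among those with 200 reads at 1.5 h (or 50 at 12 h), the 10 that moved one way through all times, up to 4 genes per list with most reads, Aire, Clp1 and the 10 entries with most reads at 12 h. Further list members were named after their values were seen, and some genes are not reported here. edgeR 4.0.16 and DESeq2 1.42.0 in R 4.3.3 served for alternatives, tested on simulated data. Other steps used Python 3.11.15 with pandas 2.3.3 and scipy 1.17.1.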

Additional observations from a re-analysis of the deposited data

How the results depend on the processing

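Counts under other settings are given for lower and then for higher entries. Against 4566 and 2066, the counts stayed within 1.5 times with TMM scaling (4298 and 2225), DESeq2 size factors (3613 and 2706), totals without the 100 largest entries (4224 and 2256), 1.5 h reads thinned to the 12 h depth (3952 and 1861), 99% intervals (3807 and 1853) and no read minimum (4566 and 2438). Other pairs of libraries gave like counts but mostly other entries: 6 h over 1.5 h called 6121 and 2588, of which 1725 and 680 were also called at 12 h over 1.5 h, and 6 h over 3 h called 5769 and 3071, of which 1724 and 733 were. The main counts moved with a 3-fold limit (2841 and 915) and with reads divided by 10 (717 and 550), for more reads behind each molecule. A minimum of 20 reads summed over the thinned 1.5 h and the 12 h library gave 2861 lower, and a minimum of 100 reads at 1.5 h gave 1157 higher. Taking the 6 h and 12 h libraries against the 1.5 h and 3 h libraries as if each pair were replicates, edgeR called 0 and 0 (3181 at an unadjusted p under 0.05, 2334 lower and 847 higher) and DESeq2 called 275 and 383. Of these, 208 and 242 were also called in the main comparison. The gap between the Aire-sensitive lists of decreased and steady distal ratio was 0.26 for 6 h over 3 h, 0.53 for 12 h over 3 h, 0.17 for 6 h over 1.5 h and 0.27 with 1 entry per gene. The gap of the whole Aire-sensitive list was -0.18, -0.17 and -0.60 in those pairs of libraries. Of the lists whose median lay at least 0.3 from that of all entries, p53 targets turned to 0.0805 relative to all entries at 6 h over 3 h, and at 6 h over 1.5 h zinc finger genes turned to 0.0239, glycolysis genes to -0.007, the miRNA machinery to 0.20 and genes of transport to the endoplasmic reticulum to -0.13. Lists closer to all entries turned as well: heat shock genes (-0.11) to 0.62 at 6 h over 3 h, 0.43 at 6 h over 1.5 h and 0.0721 at 12 h over 3 h, and apoptosis regulators (-0.13) to 0.40, 0.33 and 0.11. NF-kB feedback turned to 0.0812 at 6 h over 1.5 h, and keratins to 0.0352 and splicing factors to -0.0893 at 12 h over 3 h. Of the log2 ratios of named genes that were called, 34 of the values turned, none of them under another scaling. At 6 h over 3 h the turned values were Adam32 -5.29, Arxes2 0.87, Brd2 0.51, Ccn1 0.51, Crp 1.58, Dis3 0.089, Dusp10 0.028, Ehf 0.59, Hba-a1 -0.72, Hspa1a 0.051, Id1 -1.73, Jsrp1 -0.74, Retn -0.57, Spred2 0.54, Tbl1xr1 0.65 and Tnf 0.56. At 6 h over 1.5 h they were Adam32 -4.99, Ambn -6.70, Arhgap6 -4.99, Arxes2 1.47, Brd2 0.56, Cavin2 -4.99, Dis3 0.26, Dusp10 0.35, Egr1 0.034, Ehf 0.18, Fbxw7 0.11, Hba-a1 -0.99, Id1 -1.30, Jsrp1 -0.26, Perm1 0.0082, Tbl1xr1 0.29, Tnf 0.74 and Wap -0.41. Genes not called are left out here, such as Aire (-0.51 at 6 h over 3 h) and Clp1 (1.32), and of these Fezf2, H2-K1 and Reg3g changed sign with DESeq2 size factors. The cause was not tested. No paired analysis was possible because each time holds 1 library with no replicate number, and for the same reason no library could be left out. Depth at 12 h, where 3 reads are 1.72 CPM, limited calls for entries with few reads.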

Other observations

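Heat shock, NF-kB, p53 and cytokine lists held single genes that were called. Of all genes 21.9% were called lower and 10.4% higher, and counts near these shares say nothing particular about a list. Of 30 heat shock and stress genes, 6 were called lower and none higher, with a median log2 ratio of -0.40 (-0.29 for all genes). Hspa1b, an inducible chaperone of the HSP70 family, had 4062, 3030, 2894 and 1108 CPM at 1.5, 3, 6 and 12 h, and its near-identical copy Hspa1a had 3972, 2934, 3039 and 1083 CPM. Their reads cannot be told apart. The constitutive member Hspa8 was not called, with 2174 CPM at 12 h against 1845 CPM at 1.5 h. Nfkbia, the inhibitor that NF-kB induces against itself, had 1160, 984, 891 and 538 CPM and fell to 0.464 of its 1.5 h level (0.434 to 0.495). Birc3, another NF-kB target, had 440 CPM at 12 h against 414 CPM at 1.5 h and was not called. Of 19 p53 targets, 6 were called lower and none higher. Mdm2, the ligase that turns p53 over, had 127 CPM at 12 h against 275 CPM at 1.5 h.

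Of 26 cytokines and chemokines, 6 were called lower and 2 higher, and their median log2 ratio was -0.01, and -0.20 relative to genes of like length. Tnf had 58.1, 65.9, 97.1 and 20.04 CPM at 1.5, 3, 6 and 12 h, and so was highest at 6 h. Ltb, lymphotoxin beta, was called higher, with 72.7 CPM at 12 h against 23.5 CPM at 1.5 h. Of 24 replication histone genes, 10 were called higher and 5 lower. H1f2, a linker histone and the best read of them, fell to 39.5 CPM at 12 h, against 84.3 CPM at 1.5 h, while the other members had under 500 reads at 1.5 h. Of 28 genes of 3' end processing, Nudt21, a subunit of cleavage factor I, was called higher with 49.8 CPM at 12 h against 15.7 CPM at 1.5 h, and Papolg, a poly(A) polymerase, had no read at 12 h and 317 at 1.5 h.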
